A study of Rattus norvegicus with 6 samples.

Results

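Expression of 10 genes of transforming growth factor beta (TGF-beta), activin and bone morphogenetic protein (BMP) signalling was examined in crushed and intact rat sciatic nerves. The 10 genes were taken by gene symbol from the 30957 genes of the deposited expression table: the ligand genes Tgfb1, Tgfb2, Tgfb3, Inhba, Bmp2 and Bmp4, the receptor genes Tgfbr1 and Tgfbr2, and the SMAD genes Smad3 and Smad7. They filled 11 rows, because Tgfbr1 has 2 rows with different Ensembl identifiers. The rows were taken by symbol alone, but the members were chosen with earlier results of these data known. RNA-seq had been run on 3 crushed nerves and 3 intact contralateral nerves of Sprague Dawley rats. The methods describe adult male rats, and a proximal stump of 0.5 cm taken at 4 days postinjury, whereas the sample labels give no time point. The control is therefore a nerve of an operated animal, and no nerve of an uninjured rat was compared. The labels do not say which crushed and intact nerves came from the same rat. No transgene, deletion or drug is named in the labels of either group.

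TGF-beta ligands are secreted in a latent form, held by latency proteins, and after release they bring type II and type I receptor kinases together. The receptors phosphorylate SMAD proteins, which enter the nucleus with SMAD4: SMAD2 and SMAD3 carry TGF-beta and activin signals, and SMAD1, SMAD5 and SMAD9 carry BMP signals. In peripheral nerve, TGF-beta is known as a signal that acts on Schwann cells and fibroblasts after injury.

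Between 24844371 and 27139360 reads were counted on genes in each nerve, and 3 counts, taken as the smallest level told from 0, corresponded to 0.110 to 0.121 normalized CPM, the unit used here for counts relative to library size after TMM scaling. Of all genes, 12393 passed the expression filter and were tested. Many defining markers of the labelled tissue were absent. Of 13 Schwann cell markers, 5 had at most 3 counts in every nerve, with Mag and Cdh19 at 0 and the myelin gene Mbp at 0 to 1 counts. The leukocyte markers Ptprc, Cd163 and Adgre1 and the fibroblast markers Dcn, Lum and Col1a2 were also at 0 in all 6 nerves, while the proliferation marker Mki67 had 37037 to 43837 counts. Other listed markers were counted in every nerve, such as Pmp22 (821 to 968) and Prx (590 to 690) for Schwann cells. Leukocyte markers with counts included Cd68 (29 to 52), Cd14 (49 to 84) and Csf1r (18 to 29). Fibroblast markers with counts included Thy1 (2431 to 3372) and Pdgfra (1114 to 1525). The text therefore speaks of crushed and intact nerves as labelled and assigns no value to a cell type. In bulk RNA, fewer cells of a type and less RNA per cell cannot be told apart.

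None of the 10 genes passed an adjusted p of 0.05 in edgeR's quasi-likelihood test. Over all tested genes this limit called 3.12%, 1.47% being higher and 1.65% lower after crush. Of the members, 9 were tested, and their adjusted p lay between 0.0952 and 0.959. The limits used in the study (log2 fold change beyond 1 in either direction and p under 0.001, read here as unadjusted) were met by 0 members and by 0.282% of all tested genes. The 95% intervals of all 9 tested members lay within a 2-fold change in either direction, as did those of 11680 of all 12393 tested genes. At an unadjusted p under 0.05 there were 4 members, 3 with lower values (Tgfb2, Tgfb3 and Inhba) and 1 with higher values (Smad3), where all tested genes gave 16.2% in either direction, 6.71% higher and 9.50% lower. DESeq2 gave 0 members at an adjusted p of 0.05 and 3 at an unadjusted p of 0.05. The count at an unadjusted p of 0.05 was 2 with limma on log2(FPKM + 0.1) or log2(FPKM + 1), and also 2 without intact nerve 2, without crushed nerve 1 or without crushed nerve 2. The median log2 fold change of the 9 members was -0.12, against -0.0017 for all tested genes. For 3 members (Tgfb3, Inhba and Smad3) the crushed and intact nerves did not overlap in normalized CPM, which was the case for 23.0% of all tested genes.

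**Figure D1:**
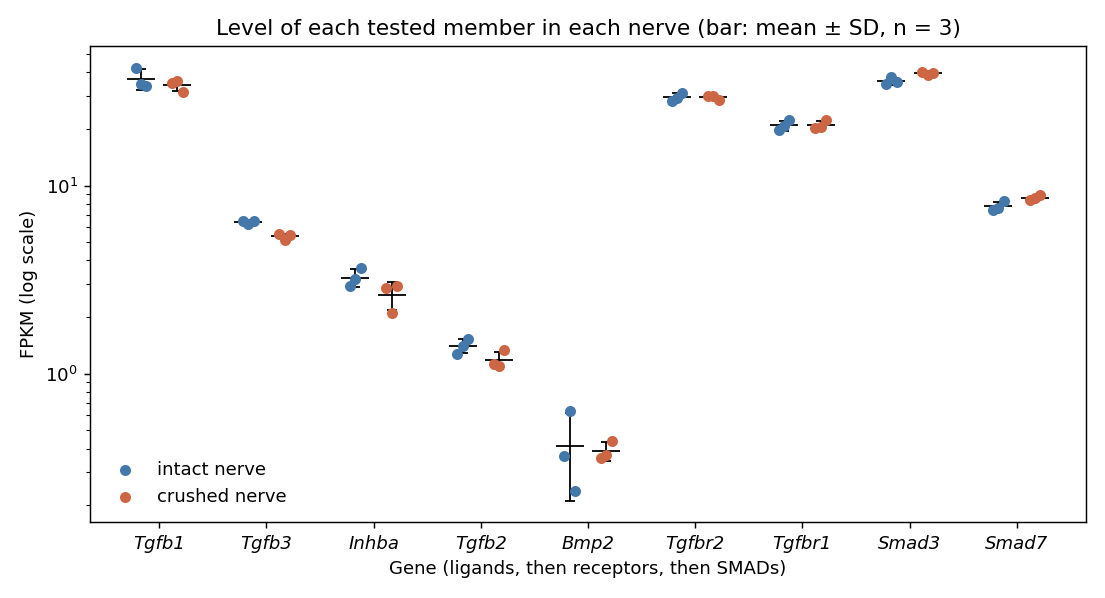
Level of each tested member in each nerve, in FPKM on a log axis, with intact nerves in blue, crushed nerves in orange and bars for mean and SD (n = 3). Levels ran from 0.402 FPKM for Bmp2 to 37.7 for Smad3 as means over the 6 nerves. In FPKM only Tgfb3, Smad3 and Smad7 showed crushed and intact nerves that did not overlap. In normalized CPM, used in the text, these were Tgfb3, Inhba and Smad3.

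Levels between genes were compared in FPKM, which divides by gene length. Means over the 6 nerves were 37.7 FPKM for Smad3, 35.5 for Tgfb1, 29.5 for Tgfbr2, 20.9 for Tgfbr1, 8.17 for Smad7, 5.88 for Tgfb3, 2.94 for Inhba, 1.29 for Tgfb2 and 0.402 for Bmp2. In this order only the neighbours Smad3 and Tgfb1 had ranges over the nerves that overlapped. Bmp4 had no count in any nerve. Of the summed FPKM of the 3 TGF-beta ligand genes, the share of Tgfb1 was 82.4% ± 1.93 (SD, n = 3) in intact and 83.8% ± 1.51 (n = 3) in crushed nerves, and these did not differ beyond the spread (exact permutation test, two-sided, p = 0.4, where 3 nerves against 3 cannot go below 0.1).

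Of the ligand genes, Tgfb1 encodes TGF-beta 1 (ENSRNOG00000020652, chr1:82480195-82497199 in Rnor_6.0, the build in the submitters' processing notes). Its normalized CPM was 91.6, 74.5 and 72.4 for the intact group (nerves 1, 2 and 3, the order used throughout) and 74.2, 76.8 and 66.6 for the crushed group. Intact nerve 1 was the highest and crushed nerve 3 the lowest, and the groups overlapped. The log2 fold change (crushed against intact, as throughout) was -0.13 (SE 0.0870, adjusted p = 0.499), with a 95% interval of the change from -20.1% to 4.34%. It was -0.011 without intact nerve 1 and -0.073 without crushed nerve 3.

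Tgfb3 encodes another isoform of the ligand (ENSRNOG00000009867, chr6:109913757-109935533). Intact nerves 1, 2 and 3 had 432, 432 and 422 counts, and crushed nerves 1, 2 and 3 had 392, 365 and 355. All crushed nerves lay under all intact nerves. In normalized CPM the means were 16.8 ± 0.394 and 14.0 ± 0.481 (SD, n = 3), a log2 fold change of -0.27 (SE 0.0746), and the adjusted p of 0.0952 was the lowest among the members. The interval of the change ran from -25.8% to -6.80%.

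Tgfb2, the isoform with the lowest level of the 3 (ENSRNOG00000002418, chr13:105039853-105141030), had 6.24, 6.86 and 7.39 normalized CPM in intact and 5.42, 5.27 and 6.39 in crushed nerves. The groups overlapped, with crushed nerve 3 above intact nerve 1, and the estimated log2 change was -0.27 (SE 0.119, adjusted p = 0.304), or -0.14 with limma on log2(FPKM + 1).

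Inhba encodes the beta A subunit of activin A and inhibin A (ENSRNOG00000014320, chr17:51898217-51912496). Normalized CPM was 7.51, 8.19 and 9.28 in intact and 7.29, 5.38 and 7.42 in crushed nerves. The groups did not overlap, although the highest crushed nerve lay only slightly under the lowest intact nerve. Its log2 fold change was -0.32 (SE 0.139, adjusted p = 0.291), and -0.18 without crushed nerve 2. Follistatin, a secreted protein that binds and blocks activin, is encoded by Fst, which had 74.6 ± 1.75 FPKM in intact and 76.3 ± 1.84 in crushed nerves (n = 3). The ratio of Fst to Inhba in FPKM was 23.2 ± 2.28 in intact and 29.7 ± 6.39 in crushed nerves, a difference at the smallest p this design allows (exact permutation test, two-sided, p = 0.1).

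The BMP ligand genes were low. Bmp2 (ENSRNOG00000021276, chr3:126335863-126346318) had 30, 54 and 19 counts in intact and 31, 32 and 35 in crushed nerves. Intact nerves 2 and 3 were the highest and the lowest of the 6. Its log2 fold change was -0.12 (SE 0.316, adjusted p = 0.891) and became 0.34 without intact nerve 2, and its 95% interval, from -0.82 to 0.58, was the widest among the members. Bmp4 (ENSRNOG00000009694, chr15:20776054-20822740) had 0 counts in all 6 nerves, which allows up to 3 counts per nerve, counting error only.

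Of the receptor genes, Tgfbr2 encodes the type II receptor that binds the ligand, and Tgfbr1 the type I receptor that signals to SMADs. Tgfbr2 (ENSRNOG00000013265, chr8:124312754-124399494) had 79.2, 81.8 and 86.7 normalized CPM in intact and 83.3, 82.7 and 79.1 in crushed nerves. The main row of Tgfbr1 (ENSRNOG00000007036, chr5:63050758-63119635) had 123, 128 and 138 in intact and 125, 126 and 137 in crushed nerves. For both genes the groups overlapped, with intact nerve 3 of Tgfbr2 above all of its crushed nerves. Log2 fold changes were -0.015 (SE 0.0496, adjusted p = 0.915) for Tgfbr2 and -0.0081 (SE 0.0546, adjusted p = 0.959) for Tgfbr1, whose 95% interval ran from -8.53% to 8.10%. The other Tgfbr1 row (ENSRNOG00000050760, chr5:64566804-64584309) had 2, 3 and 5 counts in intact and 4, 3 and 5 in crushed nerves, too few for the filter, and how reads were divided between both rows is not given in the sources used here. The ratio of Tgfbr2 to Tgfbr1 in FPKM was 1.41 ± 0.0175 in intact and 1.41 ± 0.108 in crushed nerves (n = 3).

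**Figure D2:**
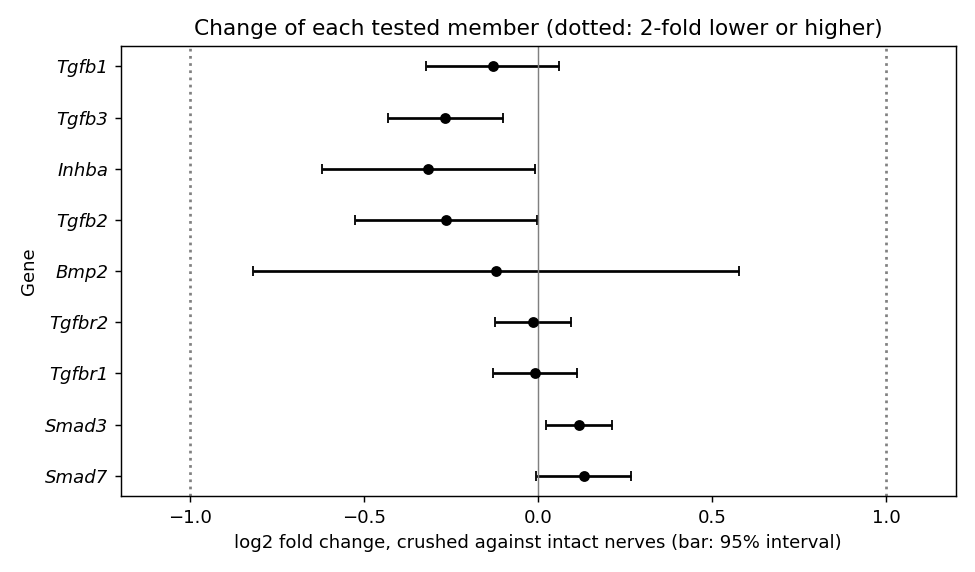
Log2 fold change of each tested member, crushed against intact, as points with 95% intervals from edgeR, and dotted lines at 2-fold lower and higher. The lowest estimate is that of Inhba (-0.32) and the highest that of Smad7 (0.13), and the interval of Bmp2 is the widest.

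Smad3 and Smad7 were the 2 tested members with a log2 fold change above 0. SMAD3 passes the TGF-beta and activin signal to the nucleus, and SMAD7 is an inhibitory SMAD that blocks the type I receptor. Smad3 (ENSRNOG00000008620, chr8:68569530-68678349) had 176, 191 and 180 normalized CPM in intact and 200, 195 and 198 in crushed nerves, and the lowest crushed nerve exceeded the highest intact nerve. Smad3 thus had a log2 fold change of 0.12 (SE 0.0428, adjusted p = 0.199), with an interval of the change from 1.63% to 15.8%. Smad7 (ENSRNOG00000018359, chr18:71395830-71424157) had 32.2, 32.7 and 35.7 in intact and 35.7, 36.6 and 37.8 in crushed nerves. Crushed nerve 1 overlapped intact nerve 3, and the log2 fold change was 0.13 (SE 0.0619, adjusted p = 0.335). The ratio of Smad3 to Smad7 in FPKM was 4.64 ± 0.345 in intact and 4.59 ± 0.166 in crushed nerves (n = 3).

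The promoters of both SMAD genes are shown because these were the tested members with a log2 fold change above 0, and because SMAD7 is known as a target of the pathway it inhibits. The sequences are from RefSeq (assembly GRCr8), from 250 bases before to 50 bases after the start of transcription, and are written 5′ to 3′ on the strand of the gene. Capitals mark matches to the motifs searched.
Smad3, GRCr8 chr8:73132275-73132574, minus strand: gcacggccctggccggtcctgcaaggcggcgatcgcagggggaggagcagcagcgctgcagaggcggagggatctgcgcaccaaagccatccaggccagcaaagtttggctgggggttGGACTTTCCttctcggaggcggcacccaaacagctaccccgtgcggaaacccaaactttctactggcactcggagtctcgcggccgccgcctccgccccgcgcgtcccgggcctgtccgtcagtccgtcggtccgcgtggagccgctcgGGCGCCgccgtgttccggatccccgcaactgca
Smad7, GRCr8 chr18:71263258-71263557, plus strand: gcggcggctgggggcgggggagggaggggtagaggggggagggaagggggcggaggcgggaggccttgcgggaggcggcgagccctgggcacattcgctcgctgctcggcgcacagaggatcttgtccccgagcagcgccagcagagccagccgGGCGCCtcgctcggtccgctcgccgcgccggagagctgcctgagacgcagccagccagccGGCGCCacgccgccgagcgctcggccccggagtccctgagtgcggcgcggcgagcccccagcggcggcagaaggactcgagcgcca
The Smad7 window held the GC-rich SMAD element GGCGCC 2 times, beginning at bases -96 and -36 from the start of transcription, and the Smad3 window held it at base 18. The Smad3 window also held the letters GGANTTTCC, part of an NF-kB element, at base -132. A promoter was listed for 9 of the 10 members, all but Bmp2. On either strand GGCGCC lay in 3 of these 9 (Smad3, Smad7 and Tgfbr1) and in 3688 of all 33469 promoters (11%). The windows of Smad3, Smad7 and Tgfbr1 were the richest of the 9 in G and C (69.7%, 77.7% and 74.7%). The median of all promoters was 51.7%, and the part of base composition in these matches was not tested. GGANTTTCC lay in 2 of 9 (Smad3 and Tgfbr2) and in 1.28% of all. The CAGA box CAGACA lay in 2 of 9 (Bmp4 and Inhba) and in 21.1% of all. The palindrome GTCTAGAC and the AP-1 element TGANTCA lay in 0 of 9, against 0.197% and 7.33% of all promoters. No match overlapped another.

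Other genes of the pathway were read by role from fixed lists. They held 95 of 96 listed genes in the table, 64 of them tested, with a median log2 fold change of -0.015. At an adjusted p of 0.05, 3 were higher and 6 lower, or 14.1% against 3.12% of all tested genes. All lists were fixed with earlier results of these data known, so their shares of calls are no independent test. The list of TGF-beta targets held 8 of these calls. In edgeR and in DESeq2 alike, 0 other ligands, receptors and co-receptors, or other SMADs and partners passed an adjusted p of 0.05. These lists held 3, 9 and 14 tested genes. In lists of this size, 0 calls lie near the 3.12% called over all tested genes. The 3 tested other ligand genes had 1 at an unadjusted p under 0.05, and the 2 named by level were Gdf11, with a log2 fold change of -0.13 (SE 0.0511, adjusted p = 0.255), and Gdf15, with -0.014 (SE 0.148, adjusted p = 0.975). The 9 tested receptors and co-receptors had 1 at that unadjusted limit, Rgmb, with a log2 fold change of 0.17 (SE 0.0685, adjusted p = 0.259). Of the 2 named by level, Bmpr1a, a type I BMP receptor, was at 0.0083 (SE 0.0510) and Bmpr2, the type II BMP receptor, at 0.046 (SE 0.0691). With 1 nerve left out, Bmpr2 ranged from 0.0079 (without crushed nerve 2) to 0.11 (without crushed nerve 1). The 14 tested other SMADs and partners had 2 at that limit. These were the BMP-responsive Smad1 at -0.097 (SE 0.0391, adjusted p = 0.254) and Skil at 0.22 (SE 0.0624, adjusted p = 0.0936). The ubiquitin ligase gene Smurf2, named by level, was at -0.018 (SE 0.0397, adjusted p = 0.864). All tested genes gave 16.2% at an unadjusted p under 0.05.

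Of the 17 tested latency proteins, activators and antagonists, 1 changed (5.88%, against 3.12% of all tested genes). Ltbp2, a gene of the latent TGF-beta binding protein family, rose from 6.93 ± 0.643 to 11.3 ± 0.866 normalized CPM (SD, n = 3). Its counts were 165, 174 and 190 in intact and 287, 301 and 306 in crushed nerves, so every crushed nerve exceeded every intact nerve. This was a log2 fold change of 0.70 (SE 0.105, adjusted p = 0.00393). With limma on log2(FPKM + 0.1) the call was lost (0.65, adjusted p = 0.0578), and on log2(FPKM + 1) the change was 0.34 (adjusted p = 0.0404). Of the same family, Ltbp1, Ltbp3 and Ltbp4 had log2 fold changes of 0.091, -0.21 and 0.0084 in edgeR (adjusted p = 0.211, 0.154 and 0.954). Whether the LTBP2 protein holds latent TGF-beta was not examined. Thbs1, thrombospondin 1, which can activate latent TGF-beta, had a log2 fold change of 0.016 (SE 0.0348, adjusted p = 0.870), and Fstl1, a follistatin-like protein gene, of -0.16 (SE 0.0394, adjusted p = 0.0527), which passed with DESeq2 (adjusted p = 0.0231) and without intact nerve 1 (adjusted p = 0.0195).

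**Figure D3:**
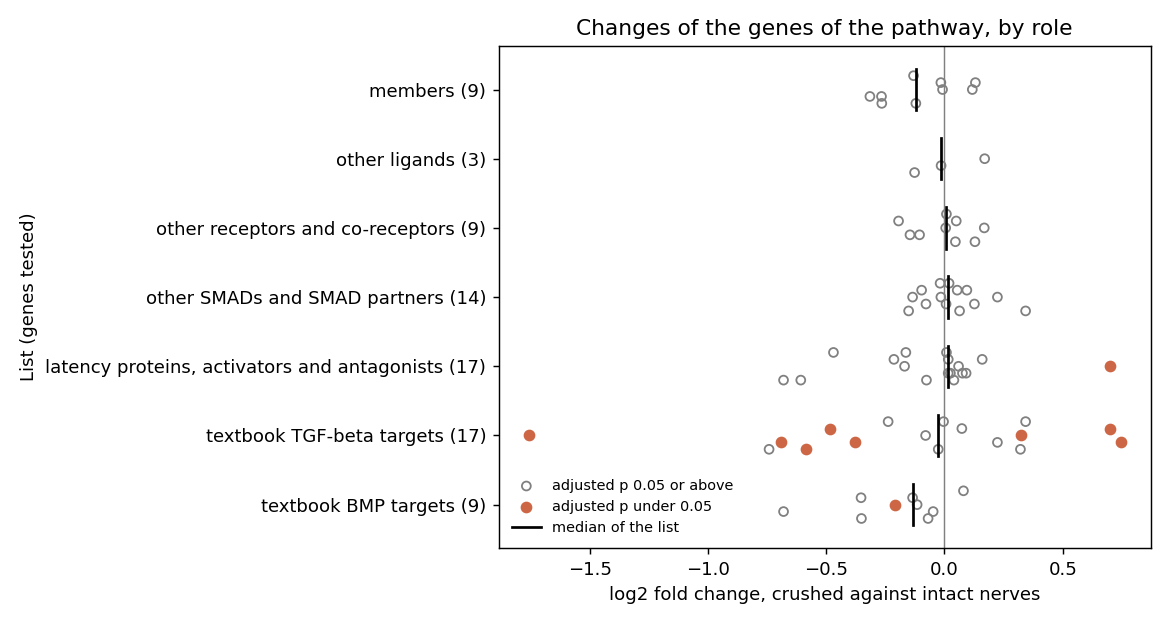
Log2 fold change of every tested gene of the members and of each pathway list, with filled points for an adjusted p under 0.05 and a black line at each list's median. The list of TGF-beta targets holds 8 of the filled points, 3 to the right and 5 to the left, with Ltbp2 also filled in the latency list.

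Textbook TGF-beta targets moved in both directions. Of 17 tested targets 3 rose and 5 fell, so that 47.1% passed an adjusted p of 0.05 against 3.12% of all tested genes, and the median log2 fold change was -0.026 against -0.0017. The list was fixed with earlier results of these data known. Junb, an AP-1 subunit gene, had 67.5, 67.2 and 61.2 normalized CPM in intact and 112, 114 and 103 in crushed nerves. The groups were far apart, with a log2 fold change of 0.75 (SE 0.0566, adjusted p = 3.73e-05). Ltbp2, given above, belongs to this list too. Among matrix genes, Col1a1, a chain of type I collagen, had 19.5, 20.4 and 20.3 normalized CPM in intact and 13.3, 12.2 and 11.7 in crushed nerves, a log2 fold change of -0.69 (SE 0.0788, adjusted p = 0.000662). Col3a1, the chain of type III collagen, had 22, 23 and 21 counts in intact and 10, 3 and 7 in crushed nerves. It was the only target to meet the study's limits, with a log2 fold change of -1.76 (SE 0.364, adjusted p = 0.0268), but at these counts its call was lost when any of intact nerves 1, 2 and 3 or crushed nerves 2 and 3 was left out, although each crushed nerve lay under each intact nerve. The call was also lost with limma on log2(FPKM + 0.1) and log2(FPKM + 1), where the change was -0.89 and -0.16, and DESeq2 gave no adjusted p for this gene.

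The other 4 targets past the limit are named after their values were seen. Fn1, the fibronectin gene, had 1253 ± 70.4 normalized CPM in intact and 835 ± 12.5 in crushed nerves (n = 3, log2 fold change -0.59, SE 0.0439, adjusted p = 3.52e-05). Tnc, tenascin C, had 514 ± 12.2 and 396 ± 10.6 (log2 fold change -0.38, SE 0.0388, adjusted p = 0.000319), and Ctgf, a matricellular growth factor gene also called Ccn2, had 17.5 ± 1.11 and 12.5 ± 0.497 (log2 fold change -0.49, SE 0.0820, adjusted p = 0.00910), a call lost without crushed nerve 1 or crushed nerve 2 and with limma on log2(FPKM + 0.1). Lox, the collagen crosslinking enzyme lysyl oxidase, was the remaining gene that rose, from 137 ± 2.48 to 171 ± 3.69 (log2 fold change 0.32, SE 0.0395, adjusted p = 0.00106). Of the 3 targets not tested, Postn and Cdkn2b had 0 counts and Acta2 0 to 3.

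**Figure D4:**
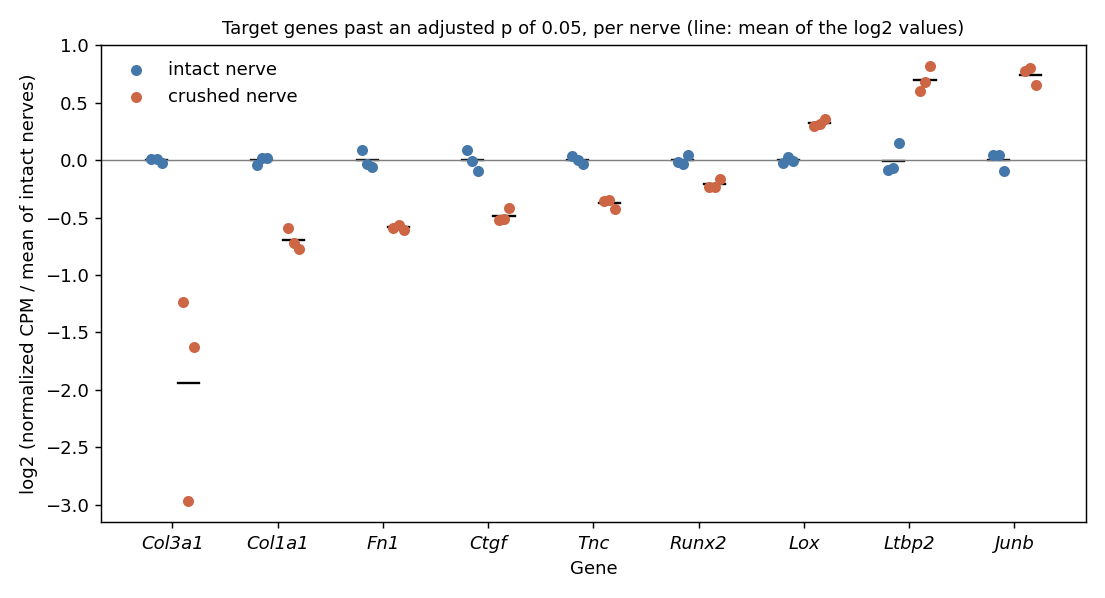
Each nerve's normalized CPM of the 9 target genes past an adjusted p of 0.05, as log2 of the ratio to the mean of the intact nerves, with a line at the mean of the log2 values. The crushed nerves of Lox, Ltbp2 and Junb lie above 0 and those of the other 6 genes under 0, and Col3a1, with 3 to 10 counts in crushed nerves, is the most scattered.

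Of 9 tested BMP targets 0 rose and 1 fell (likewise 0 and 1 calls with DESeq2), so that 11.1% passed against 3.12% of all tested genes. This list, too, was fixed with earlier results of these data known. At an unadjusted p under 0.05 there were 4, all lower, where all tested genes gave 9.50% lower. These were Runx2, Id2 (log2 fold change -0.35), Id4 (-0.35) and Bambi (-0.68), the last with only 12 to 28 counts. The median log2 fold change was -0.13, against -0.0017 for all tested genes. Runx2, an osteoblast transcription factor gene, had 187, 185 and 196 normalized CPM in intact and 161, 161 and 169 in crushed nerves. The groups did not overlap, with a log2 fold change of -0.21 (SE 0.0418, adjusted p = 0.0222), and the call was lost without intact nerve 2, intact nerve 3, crushed nerve 1 or crushed nerve 2, and with limma at both pseudocounts. Id1 and Id3, inhibitors of basic helix-loop-helix factors and the BMP targets with the highest levels, had log2 fold changes of -0.12 (SE 0.0737, adjusted p = 0.483) and 0.080 (SE 0.0522, adjusted p = 0.492). With 1 nerve left out they ranged from -0.18 (without intact nerve 2) to -0.042 (without intact nerve 1) for Id1, and from 0.043 (without intact nerve 1) to 0.14 (without intact nerve 2) for Id3.

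Markers of other cells were read beside these target genes, and some were lower in crushed nerves. Over all tested genes 1.65% were lower at an adjusted p of 0.05. Of 8 fibroblast markers 5 were tested and 2 fell, Col1a1 and Col3a1, which are also targets in the list above. The summed FPKM of that list was 103 to 110 in intact and 86.6 to 99.1 in crushed nerves, most of it from Thy1, with 93.0 ± 3.23 and 80.0 ± 5.87 (n = 3, adjusted p = 0.0552), while Pdgfra had 7.11 ± 0.516 and 8.23 ± 0.437 (adjusted p = 0.166). Of 6 pericyte and smooth muscle markers 4 were tested and 2 fell, Pdgfrb and Cspg4, and the summed FPKM was 24.4 to 26.4 and 19.7 to 20.2. Of 13 Schwann cell markers 7 were tested and 2 fell, Erbb3 and Ncam1, with sums of 34.9 to 35.4 and 31.5 to 32.5 FPKM. In the other lists no tested marker passed an adjusted p of 0.05. These were 3 tested macrophage and leukocyte markers, with sums of 2.29 to 3.23 and 2.32 to 3.59 FPKM, 4 endothelial markers (2.41 to 2.81 and 2.46 to 2.80), 3 perineurial markers (128 to 152 and 133 to 139), 1 axon marker (44.6 to 54.9 and 49.1 to 50.6 for its list) and 5 proliferation markers (621 to 635 and 619 to 635). Single genes gave most of several sums, as means over the 6 nerves. These were Slc2a1 (122 FPKM) for the perineurial list, where Lypd2 had 0 counts, and Uchl1 (49.3) for the axon list, where Nefm had 0. Cspg4 (20.0) gave most of the pericyte and smooth muscle sum. Of the muscle and fat markers 0 were tested. The part of all these markers in the values of the target genes was not tested.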

How the data were processed

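RNA-seq of 3 crushed and 3 intact sciatic nerves was analysed. The authors deposited 1 table with counts of reads per Ensembl gene, not normalized, and FPKM values made from them. The submitters' processing notes name HISAT2, StringTie 1.3.0 and Rnor_6.0. The counting program, annotation release and strand setting are not given in the sources used here. The labels name a column kit for extraction, and the methods TRIzol and RNase R. Sample titles gave the nerve of each of the 12 value columns, and 0 other columns were present.

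Counts were fitted for all genes at once with edgeR 4.0.16 (quasi-likelihood test, TMM, expression filter, no replicate block; limma 3.58.1, R 4.3.3), with Benjamini-Hochberg adjustment over 12393 genes. FPKM served for levels between genes. Replicates differed beyond sampling noise (chi-square per degree of freedom 3.38 to 12.3). The labels do not tie nerves to animals, so p-values measure the spread between these nerves. Totals are given with the results, and floors cover counting error only. The calculation was tested on simulated data.

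All members are named, and of each pathway list, up to 4 genes with the largest absolute change past an adjusted p of 0.05, and, where fewer than 2 pass, the 2 with the highest mean FPKM. Rgmb, Skil, Id2, Id4, Bambi, Ltbp1, Ltbp3 and Ltbp4 were added after the values were seen. Members and lists were chosen with earlier results of these data known. Alternatives were the replicate block, other scalings, DESeq2 1.42.0, no filter, limma on log2(FPKM + 0.1) and log2(FPKM + 1), and each nerve left out in turn. Promoters came from RefSeq (GRCr8). 1 Schwann cell marker is not reported here.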

Additional observations from a re-analysis of the deposited data

How the results depend on the processing

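Across 13 alternatives, 0 members passed an adjusted p of 0.05 in any setting. Rgmb, Skil, Id2, Id4, Bambi, Ltbp1, Ltbp3 and Ltbp4 were not among the 28 named genes checked in this way. Of these 28, 7 changed sign in at least 1 setting. With library totals alone, limma on log2(FPKM + 0.1) and limma on log2(FPKM + 1), the log2 fold change of Tgfbr1 was 0.0087, 0.0093 and 0.0089, of Tgfbr2 0.0016, 0.0021 and 0.0020, and of Gdf15 0.0026, 0.00059 and 0.00072. Leaving out 1 nerve gave -0.051 to 0.040 for Tgfbr1, -0.039 to 0.023 for Tgfbr2, -0.39 to 0.34 for Bmp2, -0.082 to 0.028 for Gdf15, -0.023 to 0.049 for Bmpr1a, -0.042 to 0.0039 for Smurf2 and -0.0037 to 0.026 for Thbs1. With limma on log2(FPKM + 0.1), the higher latency genes were 0, the lower TGF-beta targets 3 and the lower BMP targets 0, which were also 0 with log2(FPKM + 1). DESeq2 called 1 latency gene lower. Leaving out 1 nerve gave 0 to 1 lower latency genes, 3 to 4 lower TGF-beta targets and 0 to 1 lower BMP targets. Over all genes, 242 and 256 were called with limma at both pseudocounts and 179 to 392 with 1 nerve left out, against 387, and 14 met the study's limits with log2(FPKM + 1), against 35. The cause was not tested. Same-numbered nerves did not deviate together (correlations -0.0148, 0.00586 and 0.0756, and 2 of 6 nerves correlated best with their own number). With 3 nerves in each group, this cannot show whether same-numbered nerves came from the same rat. With the replicate block 300 genes were called, and Col3a1 had an adjusted p of 0.0597. Depth limits Bmp2, Bmp4 and the minor Tgfbr1 row.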

Other observations

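Beyond the fixed lists, 17 further symbols of the family (18 rows) were collected by name after the values were seen, and some share only a name with the pathway. Of these rows 7 were tested and 0 passed an adjusted p of 0.05 in edgeR's quasi-likelihood test. At an unadjusted p under 0.05 there was 1, where all tested genes gave 16.2%. That gene was Tgfbrap1, a TGF-beta receptor associated protein gene, with 38.6, 41.5 and 39.7 normalized CPM in intact and 46.2, 40.7 and 45.5 in crushed nerves (log2 fold change 0.14, SE 0.0640, adjusted p = 0.297). The groups overlapped at intact nerve 2 and crushed nerve 2. Gdf1, a ligand gene, had 48, 42 and 43 counts in intact and 28, 42 and 36 in crushed nerves (log2 fold change -0.38, SE 0.209, adjusted p = 0.402).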
